A study of Solanum lycopersicum with 6 samples.

Results

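In leaves of tomato (Solanum lycopersicum), 272 of 35768 gene models carried many ribosome footprints after LTM treatment and had a far lower level with cycloheximide. They were chosen by their footprint levels. A level in CPM is a model's count scaled to a library of 1000000 counts. Each of these LTM-high models had at least 10 CPM in both LTM libraries and a mean LTM level at least 32 times its mean CHX level, where a summed CHX count under 3 was set to 3. Loci with any of 8 identifier prefixes were left out by the rule. Of the 80 models in those loci, 9 met the same limits. Since LTM and CHX levels chose the models, those levels and their ratio are a description and are not tested. The mRNA level was not part of the rule. It is not wholly separate from it, because the mRNA was taken from aliquots of the CHX extract.

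Ribosome profiling sequences the short mRNA fragments that ribosomes protect during RNase digestion. Cycloheximide stops ribosomes throughout elongation, so its footprints spread along the coding region. LTM is the usual short form of lactimidomycin, a name the labels do not spell out, which blocks ribosomes at their first step of elongation, while ribosomes already elongating run off. Puromycin, added to an extract, releases ribosomes that are elongating, so the 2 agents together leave footprints mainly at start codons. In plant genomes, related genes often lie next to each other as tandem copies that arose by local duplication, and models that follow each other in locus order can therefore be near-identical in sequence.

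The series holds 2 LTM libraries, 2 CHX libraries and 2 mRNA libraries of true leaves. The labels name no cultivar, genotype or transgene. Plants of all 6 libraries grew at 28 °C with 12 h of light. The labels disagree on plant age, with leaves of 3 weeks named as the tissue and plants of 2 weeks at collection. LTM footprints came from leaves of plants treated with LTM, and the extract received puromycin. The labels call the leaves of the CHX libraries CHX-treated, and cycloheximide at 100 µg/ml was in the buffer in which their polysomes were extracted. The mRNA libraries hold total RNA of aliquots of that extract, depleted of rRNA. The mRNA of LTM-treated leaves was not analysed here, so more transcript in those leaves and more initiating ribosomes per transcript cannot be told apart in any LTM value below. In whole leaves, fewer cells of a type and less RNA per cell cannot be told apart either.

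Total counts ran from 18240140 in LTM replicate 1 to 48704200 in CHX replicate 1. Counts of mRNA cover the transcript region and those of footprints the coding region, so a ratio of the former to the latter also depends on the untranslated share of a transcript. Replicates of each kind differed by more than sampling noise (chi-square of 47.1 to 52.8 per degree of freedom). The labels do not say whether replicates came from separate plants, so their spread may be technical. The table gives identifiers of the form Solyc03g093080.3.1 without gene names, and 0 of them match the tomato gene table at hand. The models are therefore given by identifier with no name or function, the leaf label could not be checked against marker genes, and no sequences are shown.

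The LTM-high models together took 4.61% and 3.75% of all counts in LTM replicates 1 and 2. In CHX their share was 0.0399% in replicate 1 and 0.0411% in replicate 2, and in mRNA 0.0362% and 0.0424%. The group was thus a visible part of the LTM libraries and nearly absent from the other 4. Per model, the mean LTM level had a median of 78.6 CPM, an interquartile range of 33.5 to 200.8 CPM and a highest value of 1491 CPM. There were 110 models at 100 CPM or more and 40 at 300 CPM or more. The mean CHX level had a median of 0.597 CPM, and 174 of the 272 models lay under 1 CPM of CHX. In the other 6731 models with at least 10 CPM in both LTM libraries, called the other LTM-detected models below, the medians were 28.4 CPM in LTM and 24.1 CPM in CHX.

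**Figure D1:**
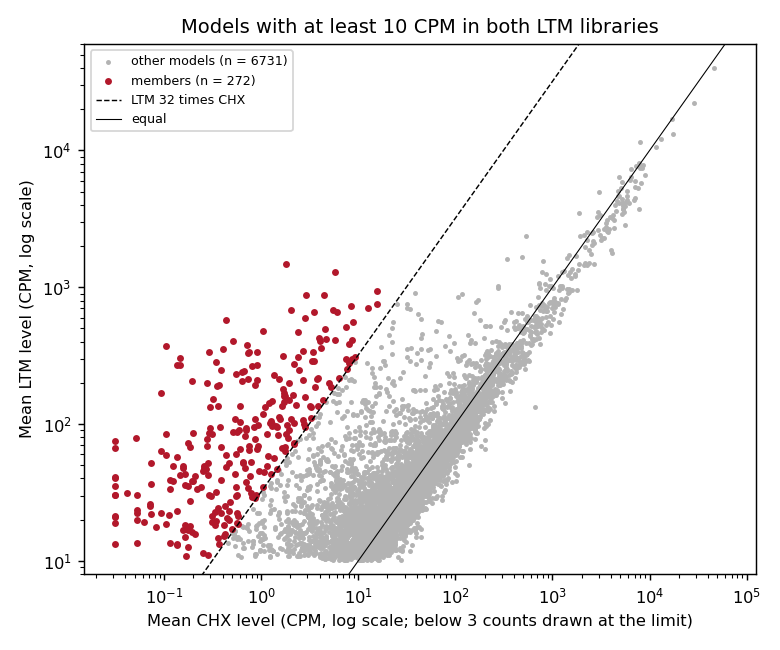
Mean LTM level against mean CHX level (CPM, both axes logarithmic, each the mean of 2 libraries) for every model with at least 10 CPM in both LTM libraries outside the loci left out. The 272 LTM-high models (dark) lie by choice above the dashed line, and most of the 6731 others (grey) lie near the line of equal levels, with a scatter of models between both lines.

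The ratio of LTM to CHX level had a median of 108 in the LTM-high models and 1.05 in the other LTM-detected models. It was 32 to 64 in 78 models, 64 to 128 in 75, 128 to 256 in 43, 256 to 512 in 42, 512 to 1024 in 20 and above that in 14. No gap separated the group from the rest: 125 LTM-detected models had a ratio of 16 to 32. Just inside the limit, Solyc10g052880.1.1 had a ratio of 32.4 and Solyc08g068640.4.1 of 32.5. Just outside it, Solyc05g052520.3.1 had 31.99 and Solyc08g028780.1.1 had 31.9. At the limit on the LTM level, Solyc03g114600.3.1 passed with 10.03 CPM and Solyc11g072040.2.1 with 10.1 CPM in their lower library, while Solyc01g007030.3.1 missed it with 9.90 CPM and Solyc12g017830.2.1 with 9.87 CPM.

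The highest LTM level belonged to Solyc07g040960.1.1, at 1733 and 1249 CPM in the LTM replicates, 2.09 and 1.48 CPM in CHX and 1.13 and 1.32 CPM in mRNA. Its LTM mean of 1491 ± 342 CPM (SD, n = 2) was 833 times its CHX mean. Solyc10g006660.3.1 followed with 1514 and 1079 CPM in LTM, 5.79 and 5.60 CPM in CHX and 2.54 and 3.69 CPM in mRNA. In both models the LTM libraries lay far above the other 4, and LTM replicate 1 was the higher of its pair.

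Solyc01g099370.3.1 had 890.8 and 980.6 CPM in LTM, 14.02 and 16.86 CPM in CHX and 5.93 and 6.09 CPM in mRNA. It had the highest CHX level of the group and a ratio of LTM to CHX of only 60.6. Solyc06g074030.1.1 stood at 998 and 756 CPM in LTM, 3.14 and 2.63 CPM in CHX and 1.89 and 1.91 CPM in mRNA. Solyc06g049020.1.1 was close to it in LTM, at 971 and 781 CPM, with 3.82 and 5.12 CPM in CHX and 1.53 and 3.13 CPM in mRNA. The LTM means of these 3 models, 936 ± 63.5, 877 ± 171 and 876 ± 134 CPM (SD, n = 2), differed by less than the spread between replicates.

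Solyc06g005170.3.1 reached 819 and 688 CPM in LTM with 15.9 and 14.9 CPM in CHX and 12.9 and 12.8 CPM in mRNA. Solyc10g086280.2.1 had 733 and 717 CPM in LTM, 8.27 and 8.71 CPM in CHX and 3.99 and 5.99 CPM in mRNA. Solyc01g095630.3.1 had 666 and 741 CPM in LTM, 14.9 and 10.6 CPM in CHX and 11.5 and 8.13 CPM in mRNA. These 3 had ratios of LTM to CHX of 48.9, 85.3 and 55.3, below the median of the group, so a high LTM level and a high ratio did not coincide in them.

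At the other extreme of CHX, 2 of the LTM-high models had 0 CHX counts in both libraries and 8 had fewer than 3. Solyc06g035700.1.1 had 80.0 and 69.2 CPM in LTM and 0 counts in all CHX and mRNA libraries, and no other LTM-high model had none in all 4. Against 3 counts over both CHX libraries, 0.0311 CPM, it was at least 2402-fold higher in LTM. Without CHX replicate 1 or 2 that limit is 1190 or 1212, since fewer counts stand behind it. Solyc03g124110.2.1, named here after its values were seen, had the highest ratio under the limit of 3 counts, 3562, from 379 and 361 CPM in LTM against 3 and 7 counts in CHX. Replicate 1 alone gave it 6156 and replicate 2 alone 2470. With a CHX sum of 0 set to 1 count, Solyc06g035700.1.1 would be above it, at 7206, so the order of these models is not settled at this depth. The mRNA counts of Solyc03g124110.2.1 were 5 and 3.

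The models were scarce in the mRNA libraries beside the other LTM-detected models. Their mean mRNA level had a median of 0.549 CPM, with 0.443 and 0.675 CPM in replicates 1 and 2, against 19.5 and 23.2 CPM in the other LTM-detected models. A mean under 1 CPM of mRNA was found in 168 of the 272 (61.8%), in 69 of the 6731 other LTM-detected models (1.03%) and in 54.9% of all models of the table. The classes were 11 models with 0 mRNA counts, 33 above 0 and under 0.1 CPM, 124 from 0.1 to 1 CPM, 99 from 1 to 10 CPM and 5 at 10 CPM or more. In this order they made up 4.04%, 12.1%, 45.6%, 36.4% and 1.84% of the group. Over all models of the table the shares were 29.7%, 9.93%, 15.2%, 27.0% and 18.2%. Models with 0 mRNA counts were thus less common in the group than in the table, where such models had a median LTM level of 0 CPM. The rule's limit on LTM excludes most of those. Among the other LTM-detected models, 3 (0.0446%) had 0 mRNA counts, so by that measure such models were more common in the group. Read the other way, LTM-high models made up 69.1% of the 243 models with at least 10 CPM in both LTM libraries and under 1 CPM of mRNA. They made up 7.05% of the 1405 such models with 1 to 10 CPM of mRNA, and 0.0929% of the 5383 with 10 CPM or more.

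This was the far end of a slope over all models with at least 10 CPM in both LTM libraries. The median mRNA level was 29.7 CPM in the 2993 models with a ratio of LTM to CHX from 0.5 to 1, 19.3 CPM from 1 to 2, 11.6 CPM from 2 to 4 and 6.86 CPM from 4 to 8. It was 4.06 CPM from 8 to 16, 2.15 CPM from 16 to 32 and 0.549 CPM at 32 or more. Each mRNA replicate taken alone gave the same order. The classes are not independent of mRNA, because CHX and mRNA came from one extract and their levels ran together across models, with Spearman's rho of 0.858 over the 272 and 0.874 over the other LTM-detected models. CPM is not divided by length, so the levels of different models also mix abundance with length.

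**Figure D2:**
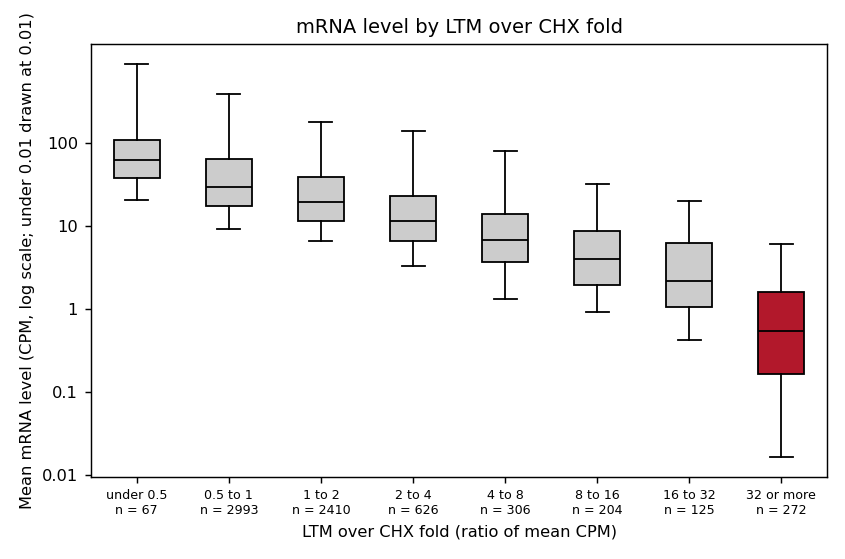
Mean mRNA level (CPM, log scale) of models with at least 10 CPM in both LTM libraries, by class of LTM over CHX ratio, with the number of models under each class. Boxes span the quartiles around the median line and whiskers the 5th to 95th percentile; the median is lower in each class above a ratio of 0.5 than in the one before and is 0.549 CPM in the LTM-high models (dark).

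The 11 models with 0 mRNA counts had mean LTM levels from 13.5 to 74.6 CPM and at most 45 counts over both CHX libraries. Against 3 counts over both mRNA libraries, 0.0544 CPM, their LTM level was at least 248-fold to at least 1373-fold higher. Of the 15 models in the whole table with 0 mRNA counts and at least 10 CPM in both LTM libraries, these 11 made up 73.3%. Solyc11g071760.3.1 had 63.3 and 50.9 CPM in LTM, 8 and 5 counts in CHX and 0 in mRNA. Solyc08g007830.1.1 had 61.7 and 42.5 CPM in LTM, 3 and 4 counts in CHX and 0 in mRNA. Both show LTM levels above 40 CPM where the other 4 libraries hold at most 8 counts each.

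Set against mRNA, the LTM level was higher in 271 of the 272 models in edgeR's quasi-likelihood test over all 20806 models tested, with Benjamini-Hochberg adjusted p under 0.05. The same call was made in 25.5% of all models tested, and in 37.4% of those with at least 10 CPM in both LTM libraries. The rule asked for a high LTM level, so this count is a description and not evidence of its own. The median fitted log2 difference between LTM and mRNA was 6.91, against 0.02 over all models tested. By CPM, with mRNA sums under 3 counts set to 3, LTM was at least 128 times mRNA in 146 models, 32 to 128 times in 95 and 8 to 32 times in 28. The remaining 3 models had an LTM level under 8 times their mRNA level.

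The 3 were Solyc06g053820.3.1, Solyc01g095320.3.1 and Solyc05g050850.3.1. Solyc06g053820.3.1 had the highest mRNA level of the LTM-high models, at 18.2 and 20.3 CPM, with 14.03 and 16.29 CPM in LTM and 0.370 and 0.460 CPM in CHX. Its LTM level of 15.2 ± 1.59 CPM lay below its mRNA level of 19.3 ± 1.51 CPM (SD, n = 2), and it was the 1 model called lower in LTM than in mRNA, a call made in 27.4% of all models tested. In this model the CHX libraries were low and the LTM libraries were not above mRNA.

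Solyc01g095320.3.1 had 12.2 and 12.8 CPM in mRNA, 0.575 and 0.522 CPM in CHX, and 42.3 and 17.5 CPM in LTM. Its LTM replicates disagreed more than those of most of the group, and the ratio of LTM to CHX was 54.5, or 31.8 without LTM replicate 1. Solyc05g050850.3.1 had 9.39 and 10.96 CPM in mRNA, 0.575 and 0.522 CPM in CHX and 35.0 and 34.1 CPM in LTM. In both, as in Solyc06g053820.3.1, CHX lay more than 10 times under mRNA in both replicates, while LTM lay above mRNA by a factor of only 2.39 and 3.39. The other 2 models with at least 10 CPM of mRNA, Solyc06g005170.3.1 and Solyc03g118470.3.1, differed from these. Solyc03g118470.3.1 had 413 and 358 CPM in LTM, a mean of 8.07 CPM in CHX and 12.05 and 10.37 CPM in mRNA, and both had LTM far above mRNA and CHX within 2 times mRNA.

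Between CHX and mRNA the LTM-high models went both ways. CHX was lower than mRNA in 37 of them (13.6%) and higher in 58 (21.3%) in the edgeR test. Over all models tested the shares were 27.4% lower and 22.5% higher, and over models with at least 10 CPM in both LTM libraries 13.4% and 42.1%. The rule asked for a low CHX level, so these counts, too, are a description. Without mRNA replicate 2 the counts were 22 lower and 34 higher. In a fit to models with at least 10 CPM in 2 libraries they were 48 lower and 34 higher, so which of the directions held more models depended on that filter. In the 154 models with at least 20 counts in each kind of library, the ratio of CHX to mRNA level had a median of 1.18 (interquartile range 0.645 to 1.59). It was 1.27 (0.920 to 1.65) in 6714 other LTM-detected models with that depth. The other 118 LTM-high models were too shallow for such a ratio.

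At least 8-fold differences between CHX and mRNA in the fit were few, with 5 models lower in CHX and 5 higher. The 5 that were lower include the 3 models above with LTM near mRNA. The remaining ones were Solyc12g010400.2.1, at 0 and 5 CHX counts against 23 and 26 mRNA counts, and Solyc03g118420.3.1, at 5 and 8 against 46 and 72. Their LTM levels were 17.7 and 22.2 CPM, and 24.7 and 21.4 CPM. All 5 models that were higher in CHX had at most 1 mRNA count in all. Among them, Solyc02g089630.3.1 had the most CHX counts, 17 and 28, with 0 in mRNA and 27.0 and 19.4 CPM in LTM.

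Within the group, LTM and mRNA levels were only loosely related. Spearman's rho between mean LTM and mean mRNA was 0.475 over the 272 models, and 0.710 over the other LTM-detected models. The points share libraries, depth and model length, and the rule limits the range of values, so these are descriptions. Models with 1 to 10 CPM of mRNA had a median LTM level of 149.8 CPM, those with 0.1 to 1 CPM had 57.5 CPM, and those above 0 and under 0.1 CPM had 38.3 CPM. The 5 models with 10 CPM or more went against this order, with a median LTM level of 34.6 CPM, and the 11 with 0 mRNA counts had 30.5 CPM.

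The LTM replicates agreed within 1.5 times in 224 of the 272 models. LTM replicate 1 was the higher in 222 (81.6%), and in 4158 of the other LTM-detected models (61.8%). The median ratio of replicate 1 to replicate 2 was 1.24 in the LTM-high models and 1.06 in the others. A ratio of 2 or more occurred in 7 models (2.57%) and in 0.565% of the others. The widest were Solyc12g057160.1.1, at 98.2 and 32.6 CPM, and Solyc10g085010.2.1, at 120 and 49.4 CPM. The widest the other way was Solyc02g090800.1.1, at 24.0 and 36.9 CPM. LTM replicate 1 was the shallowest library of the series, and the part of depth in this shift was not tested.

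**Figure D3:**
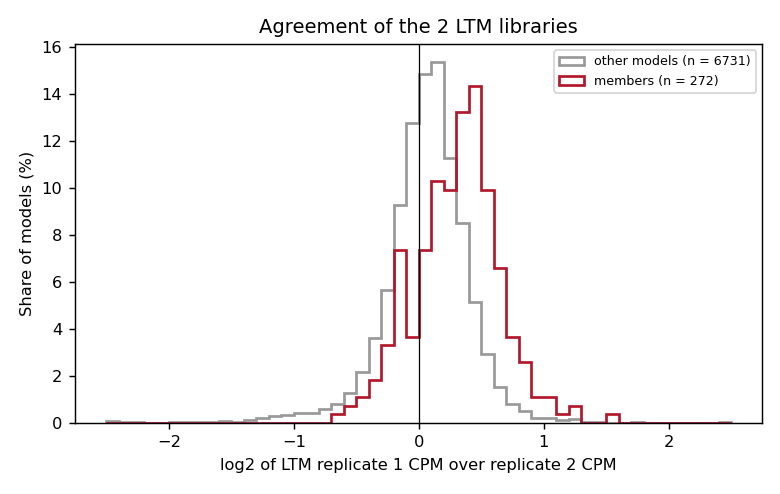
Share of models (%) by log2 ratio of LTM replicate 1 to LTM replicate 2 (CPM), for the 272 LTM-high models and the 6731 other LTM-detected models. The LTM-high models are shifted towards replicate 1, with a median ratio of 1.24 against 1.06.

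Libraries that a choice did not use are free of selection on their own noise. The spread between replicates may be technical, and these libraries also served the rule, so the shares below are a description and no independent support. With LTM replicate 1 and CHX replicate 1 alone, 326 models met the limits, and 244 of these (74.8%) also met them in replicate 2. Their median ratio of LTM to CHX was 114 in the libraries that chose them and 75.8 in the others, and it was at least 8 in 325 of the 326. Chosen in replicate 2, 253 models met the limits, and the same 244 (96.4%) also met them in replicate 1, where the median ratio was 145 against 103. The 244 are the models that met the limits in both replicates, so the 2 shares differ only by the number chosen. Of the 272 LTM-high models, LTM replicate 1 was the higher in 222 and CHX replicate 2 the higher in 170. The part of this in the difference between the 2 choices was not tested. With the numbers crossed, 298 models chosen in LTM replicate 1 and CHX replicate 2 met the limits in the other libraries in 82.5% of cases, with median ratios of 109 and 104. Chosen in LTM replicate 2 and CHX replicate 1, 283 did so in 86.9%, with median ratios of 108.8 and 107. In the libraries that did not choose them, the ratio was at least 8 in 295 of the 298 and 278 of the 283. The lowest ratios there were 0.0428 and 0.00177, so the lowest model of each choice had CHX far above LTM in the other libraries.

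By the chromosome number in the identifier, the LTM-high models were found on all 12 chromosomes and on none of the 838 models numbered to chromosome 0. Chromosome 1 held 42, chromosome 2 held 39 and chromosome 3 held 34. As a share of models with at least 10 CPM in both LTM libraries, which was 3.87% over all chromosomes, chromosome 2 was highest at 5.31% and chromosome 8 next at 5.02%. Chromosome 5 was lowest at 1.06%, with 5 models of 470, followed by chromosome 9 at 1.76%, with 9 of 510. No test was made of these shares, since neighbouring models are not independent.

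**Figure D4:**
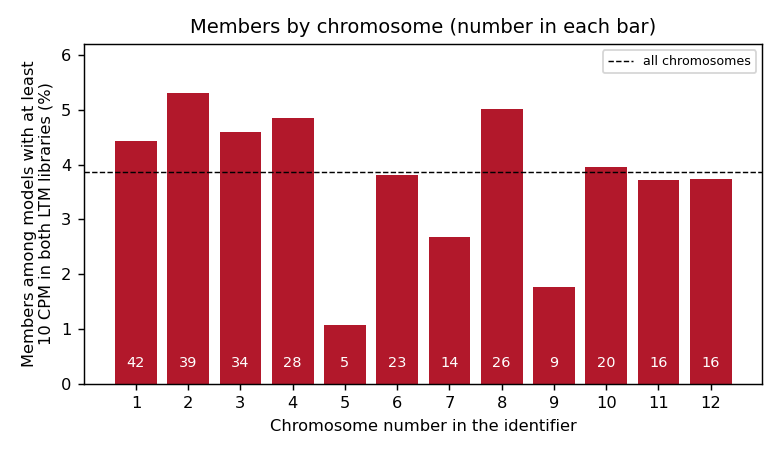
Share of LTM-high models (%) among models with at least 10 CPM in both LTM libraries, by chromosome number in the identifier, with their number in each bar and the share of 3.87% over all chromosomes as a dashed line. Chromosomes 5 and 9 have the lowest bars, at 1.06% and 1.76%.

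Many of the LTM-high models lay side by side. A tandem run is taken here as 2 or more of them that follow each other in locus order with no other model between. There were 24 such runs with 55 models (20.2% of the group): 20 runs of 2, 1 of 3 and 3 of 4. Of the other LTM-detected models, 1.75% had an LTM-high model as a direct neighbour. Within 10 models on either side, 109 LTM-high models (40.1%) had another of the group, and 14.3% of the other LTM-detected models did. Reads shared by near-identical copies can be split or dropped in counting, so levels within a run are uncertain. No LTM-high model had the same counts in all 6 libraries as another of the group. Split or dropped reads need not give equal counts, so this does not show whether reads were shared.

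The run of 4 with the highest mean LTM level was on chromosome 3, from Solyc03g093080.3.1 to Solyc03g093130.3.1. Solyc03g093080.3.1 had 242 and 139 CPM in LTM, 0.411 and 0.293 CPM in CHX and 0.242 and 0.329 CPM in mRNA. Solyc03g093110.3.1 had 254 and 157 CPM in LTM, 0.637 and 0.648 CPM in CHX and 0.282 and 0.198 CPM in mRNA. In both, LTM replicate 1 was well above replicate 2, while the order of the CHX and of the mRNA replicates differed between them.

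Solyc03g093120.4.1 followed with 302 and 165 CPM in LTM, 0.452 and 0.648 CPM in CHX and 0.282 and 0.362 CPM in mRNA. Solyc03g093130.3.1 was the highest of the run, with 473 and 280.5 CPM in LTM, 0.534 and 0.898 CPM in CHX and 0.605 and 0.659 CPM in mRNA. All 4 thus lay between 139 and 473 CPM in the LTM libraries and under 1 CPM in the other 4 libraries. The models beyond the run did not share this: Solyc03g093070.1.1 before it had 1 count in LTM replicate 2 and none elsewhere. Solyc03g093140.3.1 after it had 22.9 CPM in both LTM libraries, 24.7 and 19.1 CPM in CHX and 38.2 and 30.4 CPM in mRNA.

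The run of 4 on chromosome 4 extends from Solyc04g074430.1.1 to Solyc04g074470.1.1. Its first model had 116 and 102 CPM in LTM, 0.821 and 0.919 CPM in CHX and 0.443 and 0.593 CPM in mRNA. Solyc04g074440.1.1 had 106 and 97.1 CPM in LTM, 0.595 and 1.88 CPM in CHX and 0.605 and 0.889 CPM in mRNA. Its ratio of LTM to CHX of 82.1 rests on unequal CHX replicates and was 54.0 when CHX replicate 1 was left out and 171 when replicate 2 was.

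Solyc04g074450.1.1 was the highest of this run, with 342 and 325 CPM in LTM, 2.26 and 4.62 CPM in CHX and 2.22 and 3.13 CPM in mRNA. Without CHX replicate 2 its ratio of LTM to CHX was 148 in place of 97.0. Solyc04g074470.1.1 was the lowest, with 56.3 and 48.2 CPM in LTM, 0.452 and 0.857 CPM in CHX and 0.242 and 0.691 CPM in mRNA. In all 4 models CHX replicate 2 and mRNA replicate 2 were above replicate 1, while LTM replicate 1 was slightly above replicate 2. Before the run, Solyc04g074420.1.1 had 4.11 and 2.98 CPM in LTM and a ratio of LTM to CHX of 57.0. One model further lay another LTM-high model, Solyc04g074410.2.1, at 798 and 562 CPM. On the other side, Solyc04g074480.3.1 had 93.9 and 80.7 CPM in LTM with 55.9 and 70.7 CPM in CHX.

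The third run of 4 was on chromosome 11 and had the lowest levels. Solyc11g018775.1.1 had 50.2 and 43.4 CPM in LTM with 9 and 17 counts in CHX and 4 and 15 in mRNA. Solyc11g018777.1.1 had 95.8 and 50.5 CPM in LTM with 5 and 12 counts in CHX and 4 and 7 in mRNA, and its ratio of LTM to CHX of 414 was 712 without CHX replicate 2. Solyc11g018800.2.1 had 15.2 and 19.9 CPM in LTM with 3 and 5 counts in CHX and 3 and 0 in mRNA. Solyc11g018805.1.1 had 57.0 and 46.7 CPM in LTM with 10 and 17 counts in CHX and 4 and 8 in mRNA. The CHX and mRNA levels of this run rest on few counts each, and the LTM replicates of Solyc11g018777.1.1 differed 1.90 times. The flanking models were lower in LTM, at 6.80 and 5.08 CPM in Solyc11g018770.2.1 and 0.110 and 0.205 CPM in Solyc11g018810.2.1.

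**Figure D5:**
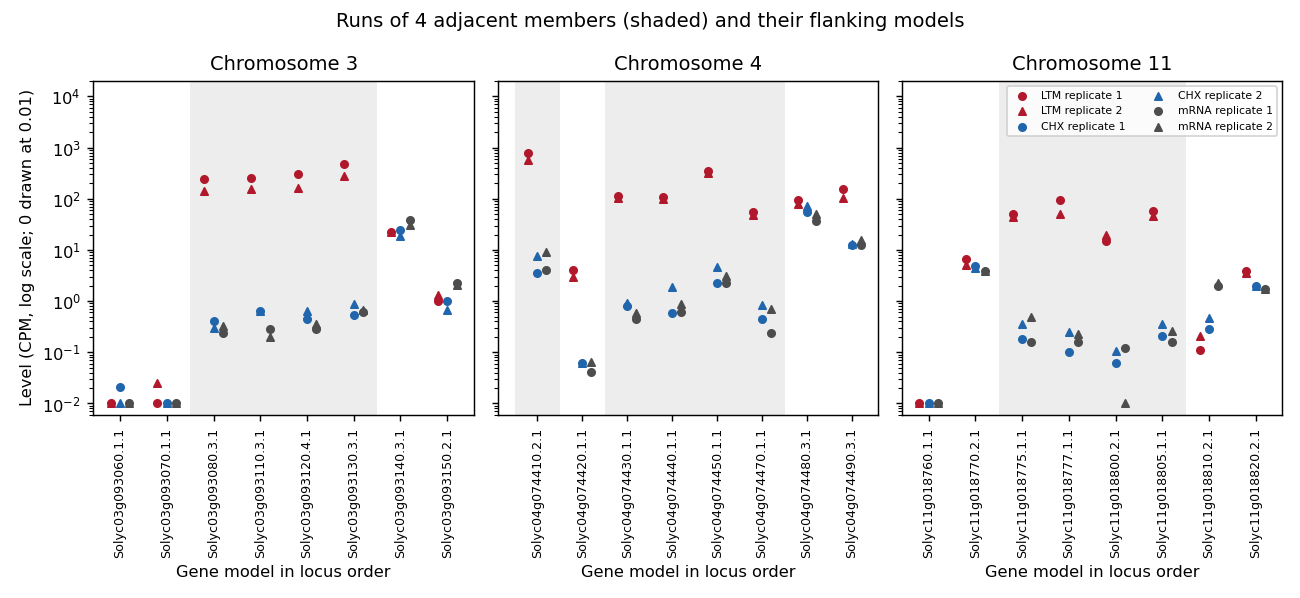
Levels (CPM, log scale, 0 drawn at 0.01) in all 6 libraries for the 3 runs of 4 adjacent LTM-high models and 2 models on each side, in locus order, with LTM-high models shaded. In the shaded models both LTM libraries lie far above the CHX and mRNA libraries, and in Solyc03g093140.3.1 and Solyc04g074480.3.1, next to 2 of the runs, the 3 kinds of library lie close together.

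The run of 3, Solyc03g093540.1.1 to Solyc03g093560.1.1, had mean LTM levels of 212 to 426 CPM and mean CHX levels of 1.51 to 3.95 CPM. Its 3 models would form a run of 4 with Solyc03g093610.1.1, which the rule left out by prefix. Of the 9 models left out that met the limits, 6 would have lain in runs. Among the runs of 2, the highest LTM levels were in Solyc04g009435.1.1, at a mean of 591 CPM, and Solyc04g009440.3.1, at 655 CPM. Solyc02g063540.2.1 and Solyc02g063541.1.1 were among the low pairs, at 20.8 and 21.2 CPM with 1 CHX count each, and the lowest single level in a run was 13.5 CPM in Solyc02g067600.1.1. Within runs, the highest mean LTM level was 1.02 to 7.12 times the lowest, with a median of 2.17. The widest spread was between Solyc09g082230.1.1, at 217 CPM, and Solyc09g082240.3.1, at 30.4 CPM. The models of runs of 2 named here were chosen after their values were seen.

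Models in runs had lower mRNA levels than those outside runs. Their mean mRNA level had a median of 0.240 CPM in the 55 against 0.736 CPM in the other 217, and 46 (83.6%) against 122 (56.2%) were under 1 CPM. The median LTM level was 84.9 CPM in runs and 78.1 CPM outside them, and the median ratio of LTM to CHX was 212 and 91.7. Models of a run are not independent, and these differences were not tested.

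Allowing 1 other model between LTM-high models joined 66 of them into 27 runs, across 8 models that were not LTM-high themselves. Of these 8, 6 had enough counts to be tested, and all 6 were called higher in LTM than in CHX, a call made in 22.4% of all models tested. Some of them missed only the limit of 10 CPM in LTM. These were Solyc01g007030.3.1, Solyc04g074420.1.1, with a ratio of LTM to CHX of 57.0, and Solyc11g071750.2.1, with at least 114 and 0 CHX counts. Solyc02g065560.1.1 had a ratio of 17.6 and Solyc12g009230.2.1 of only 2.09. The untested ones were Solyc08g036630.1.1, with no counts, and Solyc12g010410.2.1, which had 0 and 11 counts in LTM and 7 and 18 in CHX. Solyc01g007020.3.1 and Solyc01g007030.3.1 lie among Solyc01g007000.3.1, Solyc01g007010.2.1, Solyc01g007025.1.1 and Solyc01g007040.3.1. Their LTM levels were 43.5 and 34.3 CPM, and 11.7 and 9.90 CPM, with ratios of LTM to CHX of 15.1 and 38.7. On chromosome 8, Solyc08g036630.1.1 had no count in any library and separates 2 runs of 2, Solyc08g036620.3.1 with Solyc08g036625.1.1 and Solyc08g036640.3.1 with Solyc08g036660.3.1. Those 4 models had ratios of LTM to CHX from 571 to 2148. The models in these gaps were named after their values were seen.

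Models directly beside an LTM-high model that were not LTM-high themselves numbered 472, of which 309 were tested. LTM was higher than CHX in 114 (36.9%) and lower in 36 (11.7%), while 22.4% of all models tested were called higher and 19.6% lower. Of models with at least 10 CPM in both LTM libraries, 24.2% were called higher and 29.9% lower. A fitted difference of at least 8-fold was found in 47 neighbours (15.2%), and in 4.98% of the 20166 tested models that were neither. Their median fitted log2 difference was 0.28 and that of the latter -0.03. With at least 10 CPM required in 2 libraries, 52 of 130 neighbours (40.0%) were higher, against 24.0%. Neighbours that met the rule are absent from this count by definition, and the part of reads shared between related copies in it was not tested.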

How the data were processed

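Leaf footprints of 26 to 32 nt (LTM, CHX) and rRNA-depleted RNA (mRNA) were sequenced as 75-bp single-end reads, per the labels' protocols, with 2 libraries of each kind. The authors deposited raw counts per gene model, taken over the transcript region for mRNA and the coding region for footprints, per the file headers. Not given in the sources used here: the aligner, counter, genome build and treatment of multiply matching reads. Groups and replicate numbers come from the sample titles.

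CPM were computed on library totals. Analysis used R 4.3.3, edgeR 4.0.16 (with limma 3.58.1) and DESeq2 1.42.0. One edgeR quasi-likelihood model with the kind of library as factor was fitted to all 6 libraries (filterByExpr, 20806 of 35768 models kept, TMM factors 0.863 to 1.16), with p-values adjusted by Benjamini-Hochberg over the models kept and called under 0.05. The common dispersion of 0.0306 corresponds to a coefficient of variation of 0.175 between replicates. The procedure was tested on simulated counts. A sum of 0 counts allows up to 3, and such limits cover counting error only.

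The members and lists were chosen with earlier results of these data known. Models given by identifier are the 8 with the highest LTM level, the 3 longest runs, the 3 with most mRNA, those with 0 CHX and mRNA counts and those at the limits of the rule, with others chosen after their values were seen, as extremes of what a sentence describes. Locus order was read from the chromosome and locus numbers in the identifiers.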

Additional observations from a re-analysis of the deposited data

How the results depend on the processing

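Of the alternative values for the counts and medians of the group, 7 moved further and 107 stayed within 1.5 times the reported count or, for the median mRNA level, within the spread between replicates. For ratios of LTM to CHX of models on the planned list, 39 moved beyond the spread between replicates and 123 did not. With TMM factors in the CPM, the ratio of Solyc07g040960.1.1 fell from 833 to 675. The limit for Solyc06g035700.1.1 fell from 2402 to 1962. The rule's limits moved the median mRNA level from 0.549 CPM to 1.04 CPM with a ratio of 16 times, 0.317 CPM with 64 times and 0.736 CPM with 20 CPM of LTM. The number of LTM-high models was 397, 194 and 227 under these settings, 322 with 5 CPM and 237 with TMM factors in the CPM. Leaving out 1 library gave 261 to 303. Models lower in CHX than in mRNA numbered 22 (without mRNA replicate 2) to 38 when 1 library was left out, and those higher 34 (without mRNA replicate 2) to 61. Requiring 10 CPM in 2 libraries gave 48 lower and 34 higher in CHX than in mRNA, against 37 and 58, which turns the balance, and 52 neighbours higher in LTM than in CHX. Fewer models are tested in that fit, and the cause was not tested further. Same-numbered libraries are not stated to be paired. The correlation of their deviations from the group means was 0.326 between mRNA and CHX, 0.309 between LTM and CHX and 0.200 between LTM and mRNA. With a replicate block there were 271 models higher in LTM than in mRNA, 41 lower and 71 higher in CHX than in mRNA, and 123 neighbours higher in LTM than in CHX. Depth limits the CHX and mRNA levels of the scarcest models, of which 32 had at most 3 mRNA counts in all.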

Other observations

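The LTM-high models that were higher in mRNA replicate 2 tended to be higher in CHX replicate 2 as well. Over the 154 models with at least 20 counts in each of these kinds, Spearman's rho between the replicate ratios of mRNA and CHX was 0.412, and it was 0.530 over 6714 other LTM-detected models. The replicate ratio of LTM had a rho of -0.05 with that of CHX and -0.10 with that of mRNA over the same 154 models, and 0.312 and 0.319 over the others. Values of different models share their libraries and depth, so these are descriptions without a test. The sets also differ in depth. Median levels were 0.597 CPM in CHX and 0.549 CPM in mRNA over all LTM-high models, against 24.1 and 21.4 CPM in the other LTM-detected models. The part of counting noise in the lower rho was not tested.

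The 9 models left out by prefix that met the limits of the rule had mean LTM levels from 17.0 to 851 CPM and came from 6 of the 8 prefixes.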
